A study of Mus musculus with 6 samples.

Results

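The genes described here are the receptors through which estrogens act, the estrogen-related receptors and 4 of their coregulators, measured in the livers of mice fed regular or soy-enriched chow. The members are Esr1, Esr2, Gper1, Esrra, Esrrb, Esrrg, Nrip1, Ncoa1, Ncoa3 and Tle1, and a non-control probe belonged to them when its RefSeq accession is assigned to one of these genes. The rule found 21 probes of 56605 on the array, carrying 13 accessions of 10 genes, of 22911 genes with a symbol. The rule itself uses no measured value, but the genes were proposed with earlier results of these data known, so the counts of members below are descriptions and no independent evidence.

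The study compared 3 control livers with 3 soy livers, 1 array for each male mouse. Its methods describe the mice as 12 weeks old, then fed for 28 days and killed on day 28. Strain and genotype are not given in the sources used here. Control mice ate 100% granulated regular food, and soy mice ate 75% regular food with 25% soy bean, for 28 days. Because whole soy bean replaced part of the chow, isoflavones and the other components of soy cannot be told apart. Total RNA from the right hepatic lobe was labelled with Cy3 and hybridised to 1-colour Agilent arrays, on which 36366 to 38163 of 59305 spots were well above background in control arrays and 31308 to 32498 in soy arrays. All 8 hepatocyte markers were well above background on all 6 arrays, as were the Y-linked genes Ddx3y, Eif2s3y, Kdm5d and Uty, while Xist was so on none. Control arrays 1 and 2 and soy array 1 shared a slide, control array 3 and soy array 3 shared another, and soy array 2 was alone on its slide.

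Estrogen receptors alpha (Esr1) and beta (Esr2) are ligand-activated transcription factors, and soy isoflavones are plant compounds that bind both, with a preference for the beta form. Gper1 is a membrane receptor that signals through G proteins. The estrogen-related receptors share the DNA-binding fold but bind no natural estrogen, and in liver they act on genes of mitochondrial and fuel metabolism. Coactivators such as Ncoa1 and Ncoa3 and corepressors such as Nrip1 and Tle1 join these receptors, or other transcription factors, at their target genes.

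The sequences just before the start of Esr1, Nrip1 and Tle1 are shown because the contrasts of these 3 genes are described at most length below. Of their probes only 1, of Tle1, met the thresholds given there. They are RefSeq promoters of the GRCm38.p6 build, 250 bases before the start, written 5′ to 3′ on the gene's strand with matches to the GC box GGGCGG, read on both strands, in capitals.
Esr1, chr10:4611739-4611988 (+): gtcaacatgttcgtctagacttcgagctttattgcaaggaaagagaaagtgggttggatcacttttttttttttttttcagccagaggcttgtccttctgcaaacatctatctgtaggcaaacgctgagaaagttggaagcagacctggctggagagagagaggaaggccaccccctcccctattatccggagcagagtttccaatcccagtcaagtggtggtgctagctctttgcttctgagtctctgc
Nrip1, chr16:76373050-76373299 (-): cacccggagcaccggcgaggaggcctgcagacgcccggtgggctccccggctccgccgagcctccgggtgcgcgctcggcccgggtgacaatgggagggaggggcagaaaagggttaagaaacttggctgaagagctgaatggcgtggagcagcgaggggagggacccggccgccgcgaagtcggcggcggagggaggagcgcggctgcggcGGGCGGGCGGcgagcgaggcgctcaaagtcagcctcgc
Tle1, chr4:72200894-72201143 (-): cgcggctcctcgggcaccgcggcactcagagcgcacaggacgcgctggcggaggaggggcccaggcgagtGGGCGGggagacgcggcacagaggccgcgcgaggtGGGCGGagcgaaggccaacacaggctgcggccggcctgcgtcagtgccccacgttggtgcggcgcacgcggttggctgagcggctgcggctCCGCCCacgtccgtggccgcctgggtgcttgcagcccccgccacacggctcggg
The Tle1 window held 3 GC boxes and was 77.2% G and C, and the Nrip1 window shown held 2 overlapping GC boxes at 73.6%. The Esr1 window shown held none at 47.6%, against a median of 52.4% over 32851 promoters. A second Esr1 window, at another start, was 59.6% G and C and a second Nrip1 window 51.2%, both with no GC box. RefSeq gave 15 windows for 9 members, with none listed for Ncoa3. The GC box was in 6 of the 15, of Esrra, Esrrg, Ncoa1, Nrip1 and Tle1, and in 32.7% of all promoters. None of the 15 held the palindromic estrogen response element, an inverted repeat of GGTCA with 3 bases between, found in 0.0639% of all promoters, the estrogen-related receptor element TCAAGGTCA, found in 0.387%, or the shorter AGGTCA that it contains, found in 14.0%. The E-box CACGTG was in an Esr2 window and in 6.02% of all promoters. A match of letters is a description and no evidence of binding.

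Across the 21 probes, the clearest contrasts were lower signal of the corepressor Tle1 on all 3 of its probes, higher signal of the corepressor Nrip1, and lower signal of the receptor Esr1 on all 6 of its probes. Of the 6 Esr1 probes only 3 were well above background on all 6 arrays. With a 75th-percentile shift in place of quantile normalization the dimmest Esr1 probe changed by -0.01. The intervals of Esr2 and of the 3 estrogen-related receptors all held 0, as did that of the brightest Esr1 probe. A probe passed when its adjusted p in limma was under 0.05 and its fold was above 1.5 or under 0.66. Only 1 member probe passed, a Tle1 probe, where 0.350% of all 56605 probes passed, 0.208% higher and 0.141% lower in soy, so 1 of the 10 genes had a probe that passed, against 0.532% of all genes. At an unadjusted p under 0.05 there were 6 of the 21 member probes and 11.5% of all probes. Of the 15 member probes well above background on all 6 arrays, 5 were at such a p against 18.1% of all such probes, and 6 had groups that did not overlap against 23.8%. Soy and control arrays did not overlap on 8 of the 21, against 18.0% of all probes. The median change of the 21 probes was -0.21 on the log2 scale and that of all probes was -0.01, but 9 of the 21 are Esr1 or Tle1 probes, and over the 15 member probes well above background on all 6 arrays the median was -0.08. Counting each gene once by its brightest probe, and leaving out Gper1, which was well above background on no array, the median change was 0.06, with 4 genes lower and 5 higher in soy. None of the 10 passed both thresholds on that probe, where 0.458% of genes passed. By brightest probe the groups did not overlap for 3 of the 10 genes against 20.4% of all genes, 1 of them lower in soy against 10.8%, and 2 of the 10 were at an unadjusted p under 0.05 against 14.3%.

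**Figure D1:**
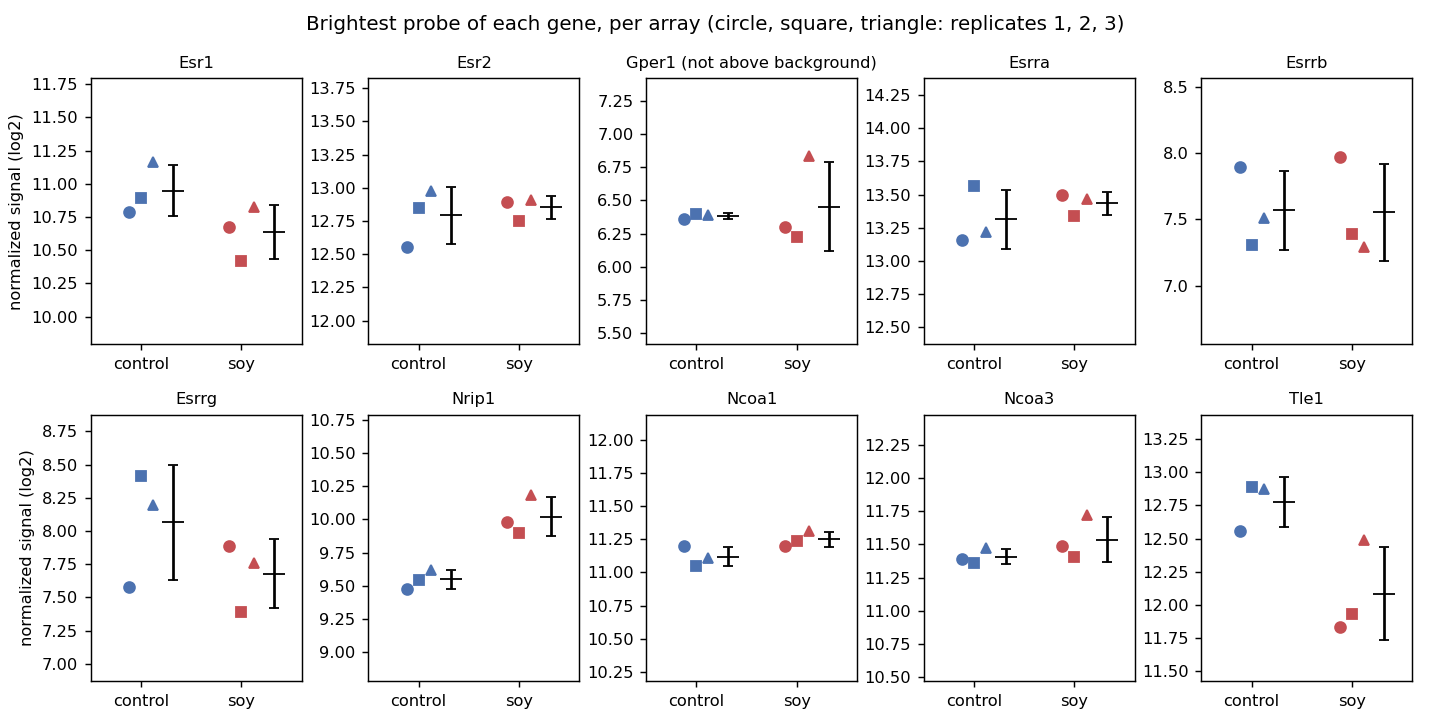
Normalized log2 signal of the brightest probe of each of the 10 genes on 3 control (blue) and 3 soy (red) arrays, with mean and SD as black bars; each vertical axis spans 2 log2 units around that gene's own level. The groups are apart for Nrip1, Ncoa1 and Tle1 and overlap for the other genes, and Gper1 was well above background on no array.

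Esr1, the main estrogen receptor of liver, was measured by 6 probes under 3 accessions (NM_001302532, NM_007956 and NM_001302533), numbered here from bright to dim. On probe 1 (NM_001302532) the log2 signal was 10.79, 10.89 and 11.16 in control arrays 1 to 3 and 10.67, 10.42 and 10.82 in soy arrays 1 to 3. Soy array 3 lay above control array 1, so the groups overlapped. The change was -0.31 ± 0.15 (SE, n = 3 per group; 95% confidence interval -0.65 to 0.03; limma adjusted p = 0.478), and it ran from -0.40 to -0.20 with 1 array left out. Within the slide of control arrays 1 and 2 and soy array 1 it was -0.17, and within that of control array 3 and soy array 3 it was -0.34. On probe 3 (NM_001302533) control arrays read 7.46, 7.39 and 7.73 and soy arrays 7.25, 7.20 and 7.31, with no overlap. The change was -0.28 ± 0.12 (SE), with an interval from -0.55 to just below 0 and an adjusted p of 0.428 in limma, and it was -0.18 without control array 3. On probe 2 (NM_007956) control array 1 was low at 9.28 against 9.86 and 9.99, and the change of -0.21 had an interval from -0.72 to 0.30. Without control array 1 it was -0.42, and without soy array 2 it was -0.04. Control array 3 was the highest of all 6 arrays on all 6 probes, and the lowest was soy array 2 on 4 probes and soy array 1 on the other 2. The dimmer probes depended on the scaling: with a 75th-percentile shift in place of quantile normalization the changes on probes 3, 4, 5 and 6 were -0.11, -0.11, -0.20 and -0.01, while on probe 1 it was -0.31. The 6 probes read the same 6 RNA samples and are not independent measurements of the diet.

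The dimmer Esr1 probes 4, 5 and 6 were well above background on 2, 3 and 1 control arrays and on no soy array. On probe 5, which all 3 control arrays measured, the mean quantile-normalized signal was at least 1.25-fold lower in these soy arrays. This bound on the observed means allows for no sampling error. It holds for that scaling alone, given the smaller change under the 75th-percentile shift. No bound is given for probes 4 and 6, where some control arrays were not well above background either. Values of probes 4, 5 and 6 under other scalings show how they depend on the processing and are not folds. Probe 5 (NM_001302532) read 6.87, 6.95 and 6.97 in control and 6.39, 6.51 and 6.62 in soy arrays, without overlap, at an adjusted p of 0.160 in limma. Across the array, 6572 probes, these Esr1 probes among them, were well above background on at least 1 control and no soy array, and 1249 the other way round. Probe 5 is also among the 2535 that were so on all 3 control and no soy arrays, against 5 the other way round. The part of this array-wide difference in detection in the Esr1 result was not tested.

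**Figure D2:**
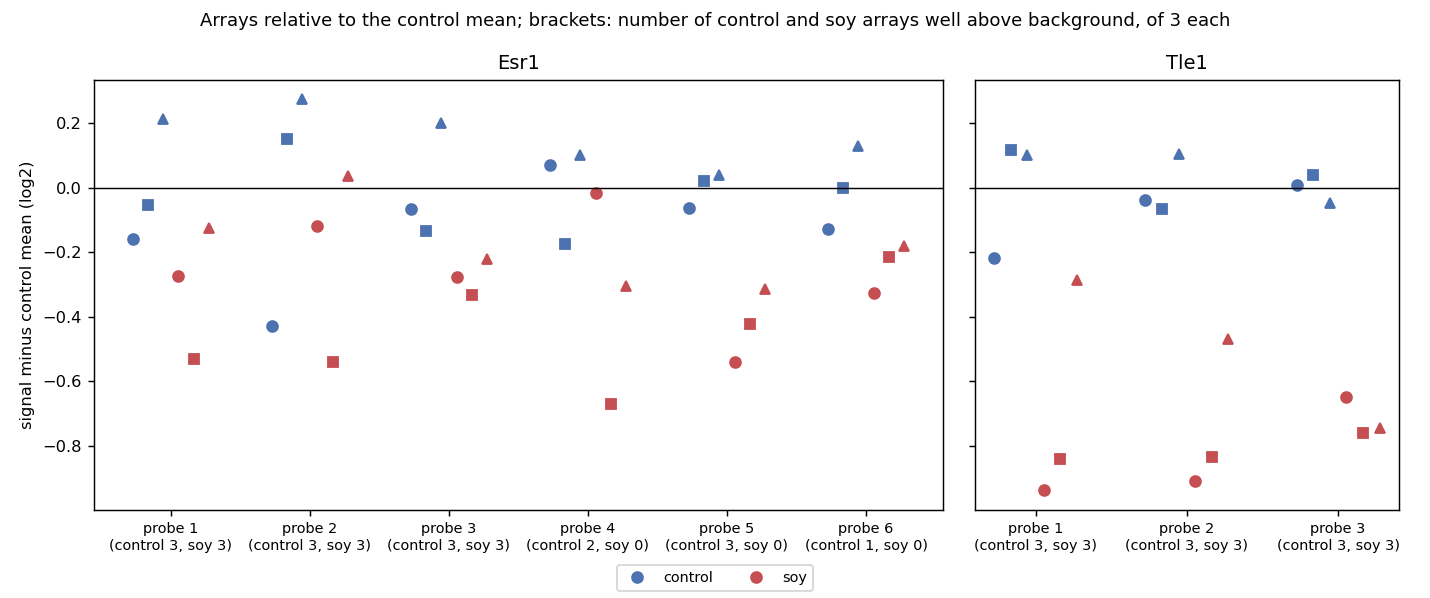
Log2 signal of each array minus the control mean of that probe, for 6 Esr1 probes (left) and 3 Tle1 probes (right), with circles, squares and triangles for replicates 1, 2 and 3 and, in brackets, how many arrays of each group were well above background. Every soy array is below every control array on all 3 Tle1 probes and on Esr1 probes 3, 5 and 6, while Esr1 probes 1, 2 and 4 overlap.

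Esr2 is the receptor form that isoflavones prefer. Its bright probe (NM_207707) read 12.56, 12.85 and 12.97 in control and 12.90, 12.75 and 12.91 in soy arrays. All 3 soy values lay inside the control range. The change was 0.06 ± 0.13 (SE; interval -0.24 to 0.36; limma adjusted p = 0.901), an interval that holds changes of either sign. Another probe of the same accession was well above background on no array, at 6.12 to 6.40, so which of them reads the Esr2 transcript is not settled here, and the values and the ratio that follow rest on the bright probe. Within each array the log2 ratio of the brightest Esr1 to the brightest Esr2 probe was -1.77, -1.96 and -1.81 in control and -2.22, -2.34 and -2.09 in soy, without overlap. Its mean fell by 0.37 in soy, from -1.85 ± 0.10 to -2.22 ± 0.13 (SD, n = 3 each; exact permutation test, two-sided p = 0.1, the smallest that 3 against 3 can give). With the second-brightest Esr1 probe the difference was -0.27 and the same exact test gave p = 0.2. A ratio of different probes compares arrays, not the amounts of the receptors. Gper1 (NM_029771), the membrane receptor, was well above background on no array. Its signals of 6.23 to 6.83, and their difference, give no level of the transcript and no fold.

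Among the estrogen-related receptors, Esrra (NM_007953), which partners the coactivators Ppargc1a and Ppargc1b in mitochondrial gene expression, read 13.16, 13.57 and 13.22 in control and 13.50, 13.34 and 13.47 in soy arrays. The soy arrays lay within the control range, and the change was 0.12 (interval -0.19 to 0.43; limma adjusted p = 0.781). It was 0.04 without control array 1 and 0.25 without control array 2. Esrrb (NM_001159500), known for its part in pluripotent stem cells, read 7.89, 7.30 and 7.51 in control and 7.97, 7.39 and 7.29 in soy arrays. Array 1 was the highest of each group, and the change of -0.02 ± 0.22 (SE) turned sign under 7 of 17 other settings, among them the 75th-percentile and cyclic loess scalings, so it has no direction. Esrrg (NM_001243792), a receptor linked to oxidative metabolism and hepatic glucose output, read 7.58, 8.42 and 8.20 in control and 7.89, 7.39 and 7.76 in soy arrays on its brighter probe. Control array 1 fell among the soy arrays, and the change was -0.39 ± 0.23 (SE; interval -0.92 to 0.14; limma adjusted p = 0.580), and it was -0.63 without control array 1 and -0.21 without control array 2. The dimmer Esrrg probe gave -0.32, with control array 1 the lowest of all at 6.81, and ran from -0.61 to -0.14 with 1 array left out.

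Nrip1 (NM_173440), a corepressor that binds liganded nuclear receptors and restrains oxidative metabolism, was the member with the highest change toward soy. It read 9.48, 9.55 and 9.62 in control and 9.98, 9.90 and 10.18 in soy arrays. Every soy array was above every control array, a pattern that 9.67% of genes showed on their brightest probe. The change was 0.47 ± 0.11 (SE; interval 0.22 to 0.73), a 1.39-fold higher signal, with an unadjusted p of 0.003 and a limma adjusted p of 0.152, so it did not pass. Within the slide of control arrays 1 and 2 and soy array 1 the difference was 0.47, and within that of control array 3 and soy array 3 it was 0.56. Over 17 other settings it stayed between 0.39 and 0.54.

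The coactivators Ncoa1 and Ncoa3, which recruit histone acetyltransferases to liganded receptors, differed little. Ncoa1 (NM_010881) read 11.20, 11.05 and 11.11 in control and 11.20, 11.24 and 11.31 in soy arrays. The soy arrays were higher by a margin that is not visible at 2 decimals for control array 1 and soy array 1, and the change of 0.13 had an interval from -0.09 to 0.35 (limma adjusted p = 0.654). The 3 Ncoa3 probes (NM_008679) gave 0.13, -0.08 and -0.04, and none came nearer to the threshold than an adjusted p of 0.721 in limma. Single arrays moved these values. The first was 0.03 without soy array 3 and the second -0.01 without soy array 2. The third turned to 0.02 without control array 3 or soy array 3. It also turned sign with the 75th-percentile shift and with cyclic loess, up to 0.12.

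Tle1, a Groucho-family corepressor that binds no DNA itself and represses genes through partner transcription factors, was lower in soy livers on all 3 of its probes. Probe 3 (NM_001285531) read 11.91, 11.94 and 11.85 in control and 11.25, 11.14 and 11.15 in soy arrays. Both groups were tight, with SDs of 0.04 and 0.06, and they did not overlap. The change was -0.72 ± 0.09 (SE, n = 3 per group), to 0.608 of the control signal (limma adjusted p = 0.0326), and this was the member probe that passed. Probes 1 and 2 share the accession NM_011599 and were brighter. Probe 2 read 12.50, 12.47 and 12.64 in control and 11.62, 11.70 and 12.06 in soy arrays, with a change of -0.74 ± 0.14 (SE; limma adjusted p = 0.0879). Probe 1 read 12.56, 12.89 and 12.88 in control and 11.84, 11.93 and 12.49 in soy arrays, with a change of -0.69 ± 0.19 (SE; limma adjusted p = 0.212). On both, soy array 3 was nearer to control than soy arrays 1 and 2, whereas on probe 3 it was not. Within the slide of control array 3 and soy array 3 the differences on probes 1, 2 and 3 were -0.39, -0.57 and -0.70, and within the slide of control arrays 1 and 2 and soy array 1 they were -0.89, -0.86 and -0.67. All 3 probes were well above background on all 6 arrays, among which 12.1% of probes had groups that did not overlap and were lower in soy. The call on probe 3 was lost when any 1 of the 6 arrays was left out, at adjusted p from 0.0659 to 0.131 in limma and changes from -0.75 to -0.70, and with the slide as a block, at -0.68 and 0.171.

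**Figure D3:**
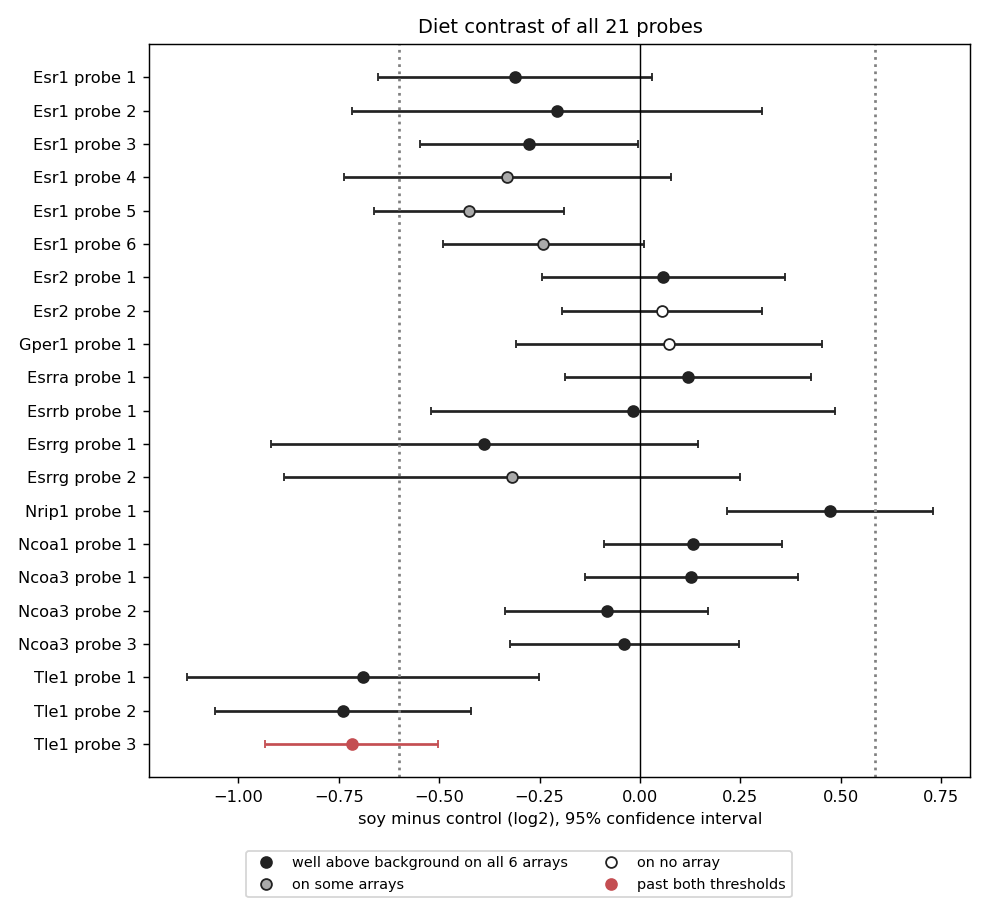
Soy minus control difference of log2 signal for all 21 probes with its 95% confidence interval; fill shows on how many arrays the probe was well above background, red marks a probe past both thresholds, and dotted lines mark the folds of 0.66 and 1.5. Intervals of the 3 Tle1 probes and Nrip1 lie on 1 side of 0, as do those of Esr1 probes 3 and 5, and only Tle1 probe 3 is red.

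Of the other 5 Groucho/TLE family genes, none passed, and 4 were higher and 1 lower in soy by their brightest probe. Over all genes 0.458% passed and 51.2% were lower on that probe. Tle6, a family member best known from the oocyte, differed by 0.64 (adjusted p = 0.426), and its soy arrays at 9.61, 9.65 and 10.44 were all above the control arrays at 9.47, 8.81 and 9.51. Tle4, another corepressor, changed by -0.34 at an adjusted p of 0.511, and Tle5, a short family member that lacks the repeats through which the others bind partners, changed by 0.17 at 0.606. With 1 array left out Tle6 ran from 0.37 to 0.78, Tle4 from -0.50 to -0.17 and Tle5 from 0.10 to 0.22. The differences between Tle1 and these genes were not tested.

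Of 25 other coregulators of estrogen receptors none passed, with 11 higher and 14 lower in soy and a median change of -0.05, where that over all genes was -0.01. By brightest probe 0.458% of all genes passed and 51.2% were lower, so these counts lie near those shares. The coactivator Ppargc1b, which drives fat and mitochondrial gene expression with Esrra, had the largest difference at -0.59, but its control arrays ran from 10.55 to 12.27 and held all 3 soy arrays (adjusted p = 0.622). The RNA helicase Ddx17, a coactivator, changed by 0.38 without overlap (adjusted p = 0.395), and the acetyltransferase Crebbp by -0.33 with overlap (0.698). With 1 array left out Ppargc1b ran from -1.09 without control array 3 to -0.23 without control array 1, and Crebbp from -0.62 without control array 3 to -0.03 without control array 2. The 7 chaperones and cochaperones that hold steroid receptors ready for ligand had 2 genes higher, 5 lower and none past the thresholds. The shares over all genes beside them are the same. Fkbp5, a cochaperone and a glucocorticoid target, read 14.05, 13.12 and 13.06 in control and 12.52, 12.02 and 12.17 in soy arrays, a change of -1.18 at an adjusted p of 0.146. Control array 1 stood above the rest, and the groups did not overlap. Its relative Fkbp4 changed by 0.26 in the opposite direction, with tight groups at 11.92 to 11.95 and 12.17 to 12.22 (adjusted p = 0.307), and the heat shock protein Hspa8 changed by -0.29 (0.323).

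Among 25 genes listed as estrogen receptor targets in other tissues, 8 were higher and 17 lower in soy, with a median change of -0.05, and 1 passed. Of all genes by brightest probe 51.2% were lower and 0.458% passed. The list holds Esr1 and Nrip1, and only 17 of the 25 were well above background on all 6 arrays, so the signs of the others carry little. The gene that passed was Hspb8 (NM_030704), a small heat shock protein, at 14.21, 14.09 and 14.20 in control and 13.48, 13.41 and 13.50 in soy arrays. The groups stood clear of each other, with a change of -0.70 ± 0.09 (SE; limma adjusted p = 0.0364). The call was lost when any 1 array was left out, at -0.74 to -0.68 and limma adjusted p up to 0.138. It was also lost with the slide as a block, at -0.68 and 0.180. Myc, a growth regulator, read 9.34, 9.88 and 9.26 in control and 10.34, 10.36 and 11.31 in soy arrays, a change of 1.17 that did not pass (adjusted p = 0.165). The chemokine Cxcl12 changed by 0.49 without overlap (0.176).

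Of 22 listed targets of the estrogen-related receptors, 21 were on the array by symbol, Cox5b not being found, and 18 were well above background on all 6 arrays. Of the 21, 14 were higher and 7 lower in soy, with a median change of 0.07, where that over all genes was -0.01. By brightest probe 2 passed, Pdk4 and Lpin1, against 0.458% of all genes, and 51.2% of all genes were lower. Pdk4, the kinase that turns off pyruvate dehydrogenase and so spares glucose, rose by 1.87 ± 0.18 (SE; limma adjusted p = 0.0151), from 9.01, 8.43 and 8.42 to 10.52, 10.63 and 10.32. Lpin1, a phosphatidate phosphatase that also coactivates nuclear receptors, fell by 3.02 ± 0.31 (SE; limma adjusted p = 0.0172), from 15.06, 14.40 and 14.26 to 12.16, 11.04 and 11.44. The 3 Lpin1 probes that passed changed by -3.16, -3.02 and -0.81. The last lost its call with any 1 array left out, at -0.87 to -0.74 and limma adjusted p from 0.0786 to 0.138. The first lost it without control array 2, soy array 2 or 3, at -3.18 to -2.94 and limma adjusted p from 0.0531 to 0.0729. The Pdk4 call was lost without soy array 1, 2 or 3, at 1.797 to 1.955 and limma adjusted p from 0.0538 to 0.0703. The Lpin1 call on its brightest probe was lost without control array 2, soy array 2 or soy array 3. The changes there were -3.11 to -2.77 and the limma adjusted p 0.0531 to 0.0732. In the slide block neither Pdk4 nor the brightest Lpin1 probe passed, at 1.84 and -2.67 and limma adjusted p of 0.102 and 0.0604. There the Lpin1 probe at -3.16 still passed, and that at -0.81 did not. The hormone gene Fgf21 read 6.60, 6.39 and 7.61 in control, where 1 array was well above background, and 7.65, 8.24 and 9.18 in soy (adjusted p = 0.241).

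Of 16 listed genes that make or inactivate estrogens, 14 were on the array, Sts and Ugt1a1 not being found, with 6 higher and 8 lower in soy and a median change of -0.25, where that over all genes was -0.01. Only 9 of the 14 were well above background on all 6 arrays, so the signs of the others carry little. Of the 14, 1 had a probe that passed, against 0.532% of all genes, and 51.2% of all genes were lower by brightest probe. Sult1a1 (NM_133670), a sulfotransferase that inactivates phenols and estrogens, fell by 0.93 on 1 of its probes (16.17, 15.94 and 16.17 against 15.25, 14.99 and 15.25; limma adjusted p = 0.0331), while its brightest probe gave -0.89 at an adjusted p of 0.0749. The call was lost with any 1 array left out, at -1.01 to -0.84 and limma adjusted p from 0.0786 to 0.121. With the slide as a block it was lost at -0.85 and 0.158. The estrogen sulfotransferase Sult1e1 read 7.94, 7.69 and 7.27 in control arrays and was well above background on no soy array, so its quantile-normalized signal was at least 2.05-fold lower there (adjusted p = 0.0749). That bound holds for this scaling alone and, being set on observed means, allows for no sampling error. The log2 change was -1.09 as reported, -0.92 with the 75th-percentile shift and -2.49 with the processed signal (limma adjusted p = 0.0055). With no soy array well above background, these values show the dependence on processing and are not folds. The probe belongs to the 2535 that were well above background on all 3 control and no soy arrays, and the part of that array-wide difference was not tested. Cyp3a11, a cytochrome P450 that hydroxylates steroids, read 15.18, 15.83 and 16.41 in control and 17.19, 17.05 and 17.01 in soy arrays, a change of 1.28 at an adjusted p of 0.128. Without control array 3, Cyp3a11 passed at 1.58 (adjusted p = 0.0471), and Sult1e1 passed at 0.0491.

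**Figure D4:**
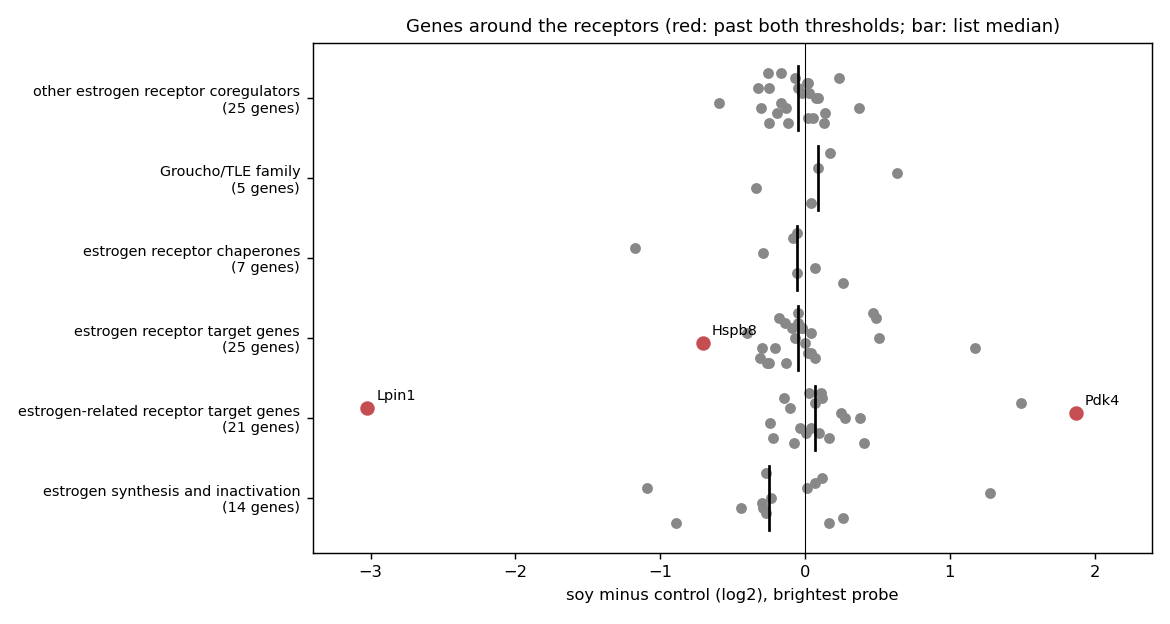
Soy minus control difference of log2 signal by the brightest probe for each gene of 6 lists around the receptors, with the list median as a black bar and genes past both thresholds in red. Most genes lie near 0, and Hspb8, Lpin1 and Pdk4 are the genes in red.

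In bulk liver, fewer cells of a type and less RNA per cell cannot be told apart. No cell type marker passed on its brightest probe, where 0.458% of all genes passed and 51.2% were lower in soy. Of 8 hepatocyte markers 7 were lower in soy. The log2 of their summed signal was 20.95, 20.95 and 20.86 in control and 20.86, 20.75 and 20.69 in soy. All sums below are formed in this way, and the brightest genes dominate them, here Alb and Serpina1a with control means of 18.997 and 19.02. The amino acid enzymes Tat, Ass1 and Cps1 differed by -0.76, -0.55 and -0.47, the latter pair without overlap, and Serpina1a, the brightest probe of the list, by -0.00. Of 8 Kupffer cell markers 7 were higher, at 15.23, 15.71 and 15.91 against 15.56, 15.82 and 16.11. Cd5l, the brightest, differed by 0.45 and Vsig4 by 0.43, while the scavenger receptor Marco differed by -0.73. Endothelial markers were higher for 5 of 8, at 15.66, 15.65 and 15.60 against 15.67, 15.86 and 15.75, with Clec4g, the brightest, at 0.20, Kdr at 0.31, Cdh5 at 0.22 and Lyve1 at -0.66. Stellate cell markers were lower for 7 of 8, at 15.43, 15.20 and 15.34 against 15.15, 15.15 and 15.27. The collagen gene Col1a1 differed by -0.99 without overlap, Col1a2 by -0.48, Reln by -0.23 and Dcn, the brightest, by -0.08. Blood cell markers were higher for 6 of 7, with soy array 2 at 18.13 and the other arrays at 16.97 to 17.49, and S100a9, S100a8, Alas2 and Hba-a1, the brightest, differed by 0.62, 0.58, 0.42 and 0.26. The blood cell sum is mostly Hba-a1, which read 18.035 on soy array 2. Of 6 cholangiocyte markers 3 were higher and 3 lower, with summed signals of 11.87, 11.39 and 11.40 against 11.75, 11.36 and 11.84. Sox9 and Spp1, the brightest, differed by -0.16 and 0.15, Cftr was well above background on all 3 control and no soy arrays, and Epcam on none. Of 5 adipocyte markers, with summed signals of 11.48, 10.91 and 10.98 against 10.92, 11.03 and 11.14, only Fabp4, the brightest, was well above background on all 6 arrays, and it differed by -0.15. Adipoq and Plin1 were so on no array. Single arrays set the size of many of these marker differences. With 1 array left out Lyve1 shrank to -0.04 without control array 1, Marco ran from -1.04 to -0.20, Cd5l from 0.20 to 0.61, Vsig4 from 0.27 to 0.62, Cdh5 from 0.09 to 0.33 and Clec4g from 0.11 to 0.25. Col1a1 ran from -1.29 to -0.61, Col1a2 from -0.70 to -0.15, Reln from -0.43 to -0.08, Dcn from -0.14 to -0.04, Sox9 from -0.27 to -0.05 and Spp1 from 0.02 to 0.36. S100a9 ran from 0.33 to 0.97 and S100a8 from 0.29 to 0.84, while Alas2 turned to -0.42 without control array 2, Hba-a1 to -0.07 without soy array 2 and Fabp4 to 0.07 without control array 1. Ass1, from -0.67 to -0.49, and Cps1, from -0.58 to -0.39, moved less. The part of these shifts in the Esr1, Tle1 and Nrip1 contrasts was not tested.

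The 5 genes whose brightest probe followed the brightest Esr1 probe most closely over the 6 arrays were Atxn7l3, Batf2, Tex30, Pus7l and Haus3, with Pearson correlations of 0.994, 0.990, 0.988, 0.979 and 0.978 among 13497 candidates. All 5 were lower in soy, by -0.11 for Batf2 to -0.24 for Haus3 on the log2 scale, and none passed. Their shared direction follows from choosing them by likeness to an Esr1 probe that was lower in soy. The 6 points share their normalization, and the list is a description of these arrays with no test.

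**Figure D5:**
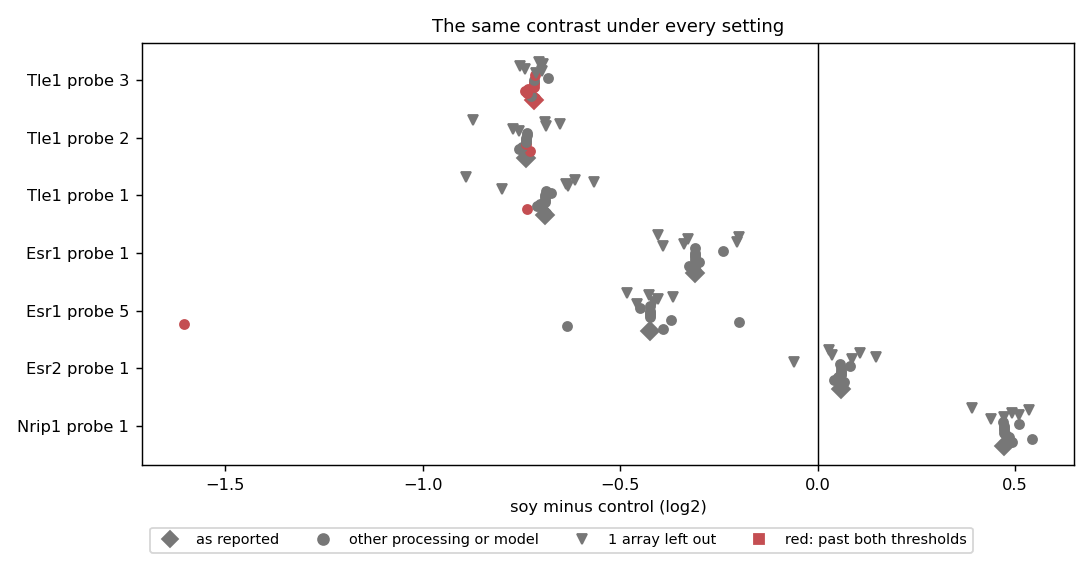
Soy minus control difference of log2 signal for 7 probes as reported (diamonds), under other processing or models (circles) and with 1 array left out (triangles), red where the probe passed both thresholds. The Tle1 and Nrip1 values stay on their side of 0, and Esr2 probe 1 turns sign once, without control array 1. Esr1 probe 5, well above background on no soy array, reaches -1.60 with the scanner's processed signal, which is not a fold.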

How the data were processed

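Liver RNA of 6 mice was measured on 1-colour Agilent arrays. The authors deposited, per the file headers, Agilent Feature Extraction 11.5.1.1 output with the median signal intensity, the median background intensity, the processed signal and flags of each spot, and a table of normalized log2 values. The deposited log2 table differed from the values computed here by at most 0.0561, and served as an alternative. Control spots and outlier flags were left out. Median signals were background-corrected (normexp, offset 50), quantile normalized, put on the log2 scale and averaged over spots of a probe. Diets were compared in limma 3.58.1 (R 4.3.3) over all 56605 probes, with Benjamini-Hochberg adjustment. Its p-values rest on the spread between these mice, moderated by the spread over all probes. With 1 array for each mouse, that spread includes differences between arrays. Passing needed both an adjusted p under 0.05 and a fold above 1.5 or under 0.66. The number of arrays limits the precision. Probes well above background carry the scanner's flag on that array. Where a group had none, "at least N-fold" sets the other group's mean against the higher of the lowest signal well above background and the probe's own signal, per array. It allows for no sampling error. Different probes of a gene are given apart, or by the brightest over 6 arrays.

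Gene symbols came from RefSeq by accession for 58.3% of probes. The design names an older genome build than the RefSeq table, so no gene positions are given other than those of the RefSeq promoter windows. The members, the gene lists and the tests were chosen with earlier results of these data known. Named were every member probe, in each other list the genes with a probe that passed and the 3 with the largest change among those measured on all arrays of a group, the marker with the brightest probe of each cell type, and the 5 genes most like Esr1. The scripts were tested on simulated data: of 100 probes changed by a log2 value of 1 in a simulated soy against control comparison of 56605 probes, 55% passed, and of 100 changed by 2, 86%. Of the unchanged probes 7 passed, and 0 did with nothing changed. Only probes brighter than the dimmer Esr1 probes were changed, with independent noise and no slide effect. The shares therefore do not hold for dim probes or for smaller changes. Samples with the same replicate number did not deviate together in every pair, and the study's methods name no block, so the reported comparison has none. Slide is a recorded batch that holds both diets on 2 of 3 slides, and it was tried as a block and within slides. Alternatives changed the background correction, signal, scaling, filter, outlier rule, variance model, block and arrays. Promoters and figures were handled in Python 3.11.15 with pandas 2.3.3 and matplotlib 3.10.9.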

Additional observations from a re-analysis of the deposited data

How the results depend on the processing

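Of 353 member probe values under the 17 other settings, 339 kept their direction. The 14 that turned came from probes that had not passed. Beside 198 probes of which 1 was a member, the counts of probes and member probes passing were 77 and 0 with an offset of 16, 13138 and 7 with the processed signal, 299 and 1 with a 75th-percentile shift, 493 and 2 among the 32376 probes well above background in all arrays of a group, 77 and 0 with the replicate block, 24 and 0 with the slide block, and 23 to 199 and 0 with 1 array left out. With the processed signal the median of all probes shifted to 0.125 and 90.8% of calls were higher in soy against 59.6% as reported, and with the 75th-percentile shift the median was 0.134. Esr1 probes 4, 5 and 6 passed with the processed signal at -1.64, -1.60 and -1.08, as did Esr2 probe 2 at 1.20. These Esr1 probes were well above background on no soy array, and Esr2 probe 2 on no array, so these values are not folds. The 75th-percentile shift took Esr1 probes 3 to 6 to between -0.20 and -0.01, and the cause of the difference between settings was not tested. Tle1 probes 1 and 2, Fkbp5, Myc, Cyp3a11, Sult1e1 and the brightest Sult1a1 probe also passed with the processed signal, Tle1 probe 2, Sult1e1 and that Sult1a1 probe with the background filter, and that Sult1a1 probe with the 75th-percentile shift and with trend and robust settings. Sult1e1 entered the background filter through its control arrays alone, the group where it was higher, so its pass there is no separate evidence. The Hspb8 and Sult1a1 calls were lost with the replicate block, at 0.0989 and 0.0601, and with an offset of 16, at 0.104 and 0.0803. Their changes were -0.70 and -0.93 with that block and -0.71 and -0.93 with that offset. The call on the Lpin1 probe at -0.81 was lost in both settings and in the slide block, at changes from -0.91 to -0.76 and adjusted p from 0.0752 to 0.184. Deviations of arrays with the same replicate number correlated at 0.116, -0.06 and 0.106 over 27282 probes, and the pairs numbered 1 and 3 also shared a slide, so number and slide cannot be told apart there. The other pair of arrays on a shared slide, control 2 and soy 1, correlated at 0.093, but control 3 and soy 2, which share neither, correlated at 0.105. The Tle1 call was lost with an offset of 16, at -0.73 and a limma adjusted p of 0.0976, and in the replicate block, at -0.72 and 0.0992. The Esr1 to Esr2 ratio difference ran from -0.43 to -0.31 with 1 array left out, an alternative chosen after seeing the data. Mean signals were not run, because the files used here hold none. 3 arrays a group and probes near background limit all of these values.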
